A study of Drosophila melanogaster with 6 samples.

Results

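The binding of 2 transcription factors was described at 10 genes that act in or on Ras signalling: *boss*, *sev*, *drk*, *dos*, *sty*, *Cbl*, *pnt*, *aop*, *edl* and *phyl*, out of 18164 genes in the annotation used. They were chosen by name, with peaks of these data already known. Their peaks were then found by gene coordinates in dm6: a peak belonged to a gene when it lay within 1000 bp of the gene body, the distance in the methods of the study. Because the peaks were known when the genes were chosen, every count and score at them is a description and no test was run on it.

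DamID-seq joins Dam, a bacterial methyltransferase that modifies the adenine of GATC, to a protein of interest and sequences the fragments that it methylates. The study asked where Eyeless (Ey), a Pax6 homolog that patterns medulla neuroblasts in time, and Su(H), which brings the Notch complex to DNA, sit in the *Drosophila* genome. There were 3 groups of 2 libraries: Dam alone (*UAS-Dam*), Ey-Dam (*UAS-Ey-Dam*) and Su(H)-Dam (*UAS-Su(H)-Dam*), each over *SoxN-Gal4*. All groups, Dam alone included, also carried *UAS-Dcr2* and *tubG80ts*, a temperature-sensitive Gal80, which the labels place over *CyO*, and *SoxN*-Gal4 drove each construct in medulla neuroblasts. In the methods of the study the parents with the Dam constructs carried *ywhsFlp*, *Sp/CyO* and the construct over *Tm6B*. No selection of larvae for *CyO* or *Tm6B* is described. Eggs laid within 8 hours at 25 °C were held at 18 °C for 3 days and then moved to 29 °C for 72 hours, and each library came from the optic lobes of a pool of about 100 brains, dissected from climbing larvae of the third instar. No expression was measured, so the cell type could not be checked by its markers. Fewer cells with a bound site and weaker binding in each cell cannot be told apart in pooled tissue. Labels do not tell which Dam library was set against which fusion library, so the peaks of the 2 factors can share controls.

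Ras signalling carries a message from a receptor tyrosine kinase at the membrane to transcription factors in the nucleus. In the developing eye, the ligand Boss on one photoreceptor activates the receptor Sev on its neighbour, the adaptor Drk brings the exchange factor Sos to the receptor, and Ras switches on the MAP kinase cascade. The cascade ends on a pair of ETS-domain proteins, the activator Pnt and the repressor Aop, also called Yan, which compete for the same targets. Sty and Cbl dampen the signal, Sty inside the cell and Cbl by marking receptors for removal. Su(H) carries the output of Notch, the other pathway that these fate decisions depend on.

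The sequences shown come from peaks at *dos*, *sty*, *pnt* and *aop* that hold the Su(H) consensus, searched on both strands as the 4 spellings TGTGGGAA, CGTGGGAA, TGTGAGAA and CGTGAGAA. No mismatch was allowed. The spellings are narrower than the Su(H) consensus of the study, which also took sites with up to 2 mismatches. They are reference sequence from Release 6 of the genome, each printed 5′ to 3′ on the strand of its first match, with 46 bases on either side of the matches, and capitals mark the matches. The stretch of *dos* lies in its intron (chr3L:2590080-2590179, plus strand). That of *sty* is intronic with a pair of matches in the same orientation, whose starts are 30 bp apart (chr3L:3410733-3410862, minus strand), and its peak was found in a single Su(H)-Dam library. Those of *pnt* are intronic too, 1 in the peak that both factors share (chr3R:23301730-23301829, minus strand) and 2 in a peak nearer the middle of the gene (chr3R:23319807-23319940, minus strand, with a pair of matches whose starts are 34 bp apart, and chr3R:23320202-23320301, plus strand). Those of *aop* come from the intron (chr2L:2164313-2164412, plus strand) and from the peak upstream of the gene (chr2L:2181763-2181862, plus strand).
dos intron: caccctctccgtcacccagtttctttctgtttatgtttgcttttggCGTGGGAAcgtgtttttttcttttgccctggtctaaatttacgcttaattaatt
sty intron pair: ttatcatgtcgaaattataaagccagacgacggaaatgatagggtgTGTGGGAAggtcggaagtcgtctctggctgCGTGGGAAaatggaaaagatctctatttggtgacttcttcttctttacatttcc
pnt shared peak: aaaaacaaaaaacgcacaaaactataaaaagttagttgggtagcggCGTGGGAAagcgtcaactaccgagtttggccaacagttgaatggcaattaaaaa
pnt middle peak pair: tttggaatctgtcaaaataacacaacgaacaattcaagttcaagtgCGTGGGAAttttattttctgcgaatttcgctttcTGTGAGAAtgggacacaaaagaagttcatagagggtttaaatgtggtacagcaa
pnt middle peak single: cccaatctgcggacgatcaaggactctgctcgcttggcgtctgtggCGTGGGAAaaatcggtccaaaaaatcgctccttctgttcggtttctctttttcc
aop intron: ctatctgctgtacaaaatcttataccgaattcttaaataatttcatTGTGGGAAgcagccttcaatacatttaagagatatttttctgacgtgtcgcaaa
aop upstream: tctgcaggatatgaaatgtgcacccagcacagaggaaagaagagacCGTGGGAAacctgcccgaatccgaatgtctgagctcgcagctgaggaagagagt
Matches were also found in peaks at *edl* and *phyl*, and these stretches are not printed. Over all peak regions within 5000 bp of the 10 genes there were 12 matches, 10 of them in regions within 1000 bp. CGTGGGAA was the most frequent spelling, with 7 of the 12 in 5 genes, and the rest were 3 of TGTGGGAA and 1 each of TGTGAGAA and, among those not printed, CGTGAGAA. A match is a string of letters and was not tested as a site.

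The Ey-Dam replicate lists held 1470 and 1509 peaks and the Su(H)-Dam lists 1455 and 1461, each called by the authors at a false discovery rate (FDR) under 0.01. A peak's score comes from the log2 ratio of fusion to Dam, and its place in a list is given as the percent of peaks with a lower score. Median scores in the replicates were 5.14 and 4.42 (Ey-Dam) and 3.22 and 2.96 (Su(H)-Dam), so scores were compared only within a list. Reproducible peaks, 984 for Ey and 972 for Su(H), came from a weaker FDR of 0.1 and an irreproducible discovery rate (IDR) of 0.05 over both replicates. Of these, 49 Ey peaks (4.98%) and 94 Su(H) peaks (9.67%) overlapped no peak of their factor's replicate lists at an FDR of 0.01. Peaks run from one GATC to another, which limits their position to whole fragments. The depth behind a peak is unknown, since reads per fragment were not analysed here.

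Reproducible Su(H) peaks were found at most of these genes. A reproducible Ey peak was found at 1 gene, too few to compare with the share over all genes. A reproducible Su(H) peak lay within 1000 bp of 8 of the 10 genes, all but *sev* and *drk*, where 5.46% of all genes had one. A reproducible Ey peak lay within that distance of 1 gene, *pnt*, where 5.54% of all genes had one. The only gene with reproducible peaks of both factors was thus *pnt* (3.33% of all genes), and 7 genes had Su(H) without Ey (2.14% of all genes).

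The replicate lists gave a different split for Ey. In each Ey-Dam replicate 3 genes had a peak, *pnt*, *aop* and *phyl*, beside 8.03% of all genes in replicate 1 and 7.94% in replicate 2, and the same 3 in both (6.3% of all genes). The Su(H)-Dam lists held 6 genes each, beside 7.76% and 8.23% of all genes. *Cbl*, *pnt*, *aop*, *edl* and *phyl* were in both (6.8% of all genes), *dos* only in replicate 1 and *sty* only in replicate 2. *boss* was in neither.

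The counts were also taken by gene length, since a longer gene offers more room for a peak. The genes ran from 4955 bp (*boss*) to 55937 bp (*pnt*), with a median of 7456.5 bp and 11 to 229 GATC sites. Of the 3 genes over 20000 bp (*sty*, *pnt* and *aop*), 1 had a reproducible Ey peak and 3 a Su(H) peak, where 23.1% and 20.1% of all genes of that length did. Among the 7 shorter genes 0 had an Ey peak and 5 a Su(H) peak, where 4.47% and 4.57% did. The part of length in the counts was not tested.

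**Figure D1:**
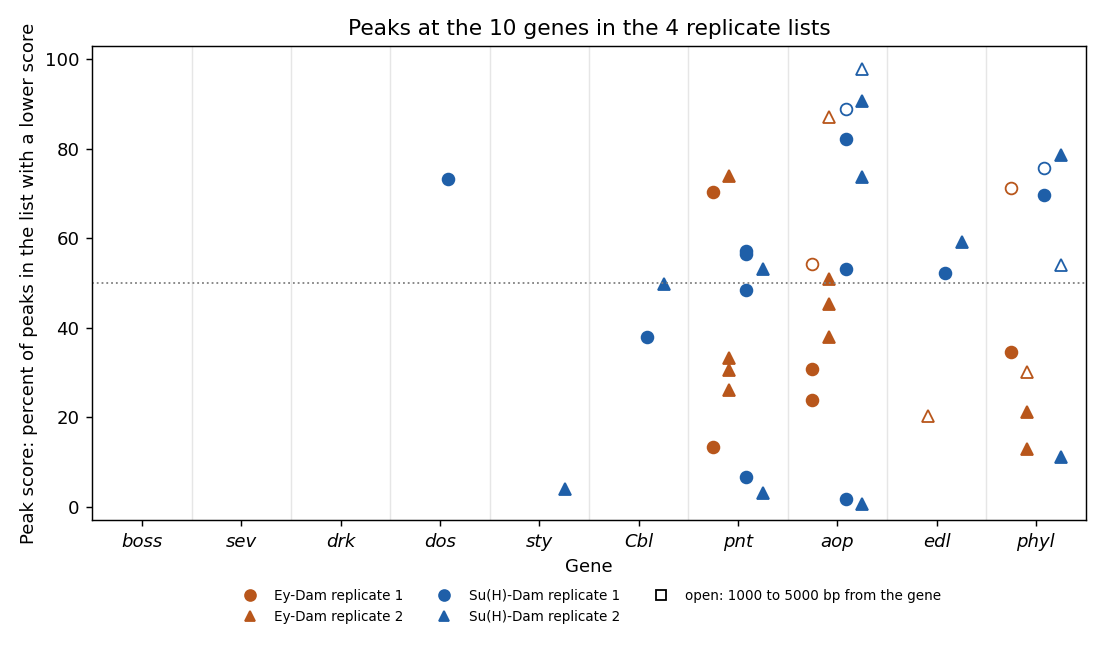
Score of every peak at the 10 genes in the 4 replicate lists, as the percent of peaks in that list with a lower score (vertical axis, 50 marked by a dotted line); colours give the factor, circles replicate 1 and triangles replicate 2, and open symbols lie between 1000 and 5000 bp from the gene. The upstream *aop* peak stands highest, at 97.8% in Su(H)-Dam replicate 2, and *boss*, *sev* and *drk* have no peak in these lists.

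*boss*, *sev* and *drk*, at the upper end of the pathway, had no peak at an FDR of 0.01. *boss* (FBgn0000206, chr3R:25961994-25966948, plus strand) encodes the ligand. It had a reproducible Su(H) peak 572 bp past its 3′ end (chr3R:25967520-25968673), which overlapped no peak in either Su(H)-Dam replicate list. The IDR score of this peak, higher where the replicates rank a peak more alike, was above that of 89.1% of the reproducible Su(H) peaks. The next Su(H) peak in a replicate list was 29030 bp away, and the nearest Ey peak of any list 30580 bp away. *sev* (FBgn0003366, chrX:11071441-11086299, minus strand) encodes the receptor, and its nearest peaks in any list lay 240846 bp (Ey) and 167121 bp (Su(H)) away, farther than at the other 9 genes. *drk* (FBgn0004638, chr2R:13495222-13502841, minus strand) encodes an SH2 and SH3 adaptor and had its nearest peaks 27227 bp (Ey) and 28599 bp (Su(H)) away. Their GATC sites, 70 in *sev* and 12 in *drk*, leave fragments of up to 1805 bp and 1179 bp within the genes.

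*dos* (FBgn0016794, chr3L:2589414-2595590, plus strand) encodes an adaptor that binds the phosphatase Csw below receptor tyrosine kinases. Its Su(H) peak began 261 bp after the start site (chr3L:2589675-2591521) and took in 1320 bp of 5′ UTR and 527 bp of intron. The score was 3.62 in Su(H)-Dam replicate 1, above 73.3% of that list, with no peak in replicate 2 at an FDR of 0.01. The peak was in the reproducible list, but with an IDR score above only 13.3% of it. The nearest Ey peak of any list lay 15990 bp away. The printed *dos* match stands 712 bp downstream of the start site.

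The negative regulators *sty* and *Cbl* differed in how their Su(H) peaks repeated. *sty* (FBgn0014388, chr3L:3401153-3424935, minus strand) encodes Sprouty, an inhibitor inside the cell. Its reproducible Su(H) peak (chr3L:3399823-3401038) lay 115 bp past the 3′ end and overlapped no peak of a replicate list, and its IDR score was above 4.94% of the reproducible Su(H) peaks. The intronic peak with the pair of matches (chr3L:3409881-3410936) was found in Su(H)-Dam replicate 2 alone, with a score of 2.05, above 4.04% of that list. The 2 Su(H) calls at *sty* were thus at different places, 1 reproducible and outside the gene, the other in 1 library and inside it. The nearest Ey peak of *sty* lay 13492 bp away. *Cbl* (FBgn0020224, chr3L:8424954-8432246, plus strand) encodes a ubiquitin ligase for activated receptors. It had 1 Su(H) peak (chr3L:8425113-8425813), with scores of 3.01 in replicate 1 and 2.96 in replicate 2, above 37.9% and 49.8% of the lists. It had the same bounds in both, a length of 701 bp over 3 GATC fragments, and lay wholly in exon, with 196 bp of 5′ UTR and 505 bp of coding sequence. It held no match. The nearest Ey peak lay 19234 bp away in Ey-Dam replicate 1, 173283 bp in replicate 2 and 26423 bp in the reproducible list.

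*pnt* (FBgn0003118, chr3R:23290231-23346167, minus strand) encodes the ETS activator and has 3 annotated start sites. It was the only one of the 10 genes where both factors had reproducible peaks, and these overlapped. The shared region (chr3R:23301012-23302894) lay in an intron, 5774 bp upstream of the nearest start. Ey-Dam scored 5.61 and 4.98 there (mean 5.30 ± 0.45, SD, n = 2), above 70.4% and 73.8% of the lists. Su(H)-Dam scored 3.20 in replicate 1, above 48.5% of its list, and had no peak in replicate 2 at an FDR of 0.01. It was the best-scored Ey peak within 1000 bp of any of the 10 genes in each replicate.

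A region in the middle of *pnt* (chr3R:23319723-23320799) was called in all 4 replicate lists with the same bounds. Su(H)-Dam scored 3.34 and 3.01, above 57.3% and 53.1% of the lists, and Ey-Dam scored 4.26 and 4.01, above 13.4% and 33.3%. The IDR kept its Su(H) peak, with a score above 94.7% of the list, and not its Ey peak. It held 3 of the printed matches, the most of any peak region at these genes. The remaining *pnt* regions were each missing from at least 1 list. The region over the most downstream start (chr3R:23294121-23295315) scored 3.77 in Ey-Dam replicate 2 and 2.39 and 2.02 in Su(H)-Dam, the latter above 6.67% and 2.94% of the lists. The region near the most upstream start (chr3R:23343682-23344036) scored 3.93 in Ey-Dam replicate 2 and 3.33 in Su(H)-Dam replicate 1.

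**Figure D2:**
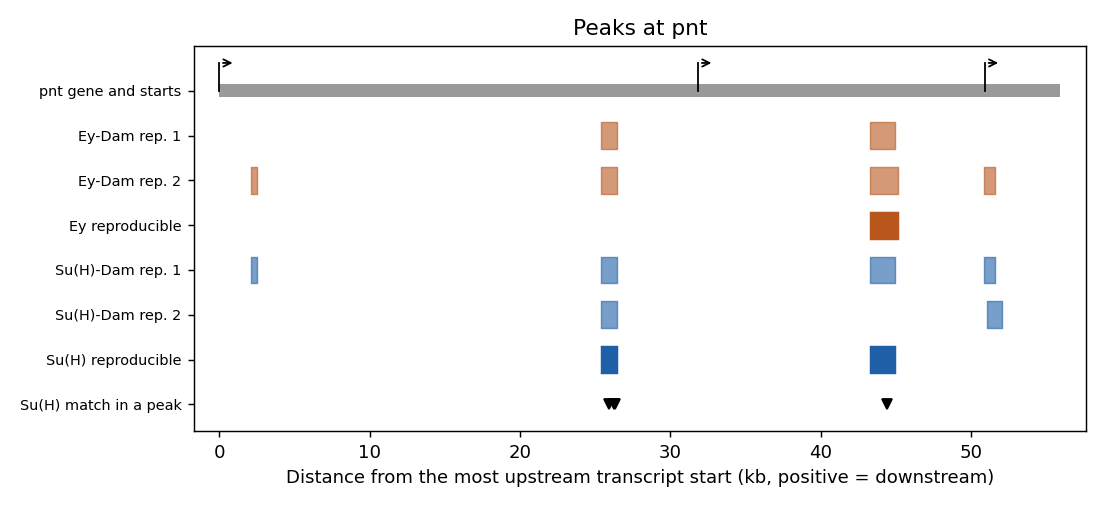
Map of *pnt* in kb from its most upstream start site, positive downstream, with the gene as a grey bar, start sites as arrows, the peaks of each list as boxes and Su(H) consensus matches as triangles. The region in all 4 replicate lists is intronic and carries 3 matches, and the region with reproducible peaks of both factors carries 1.

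*aop* (FBgn0000097, chr2L:2156484-2178754, minus strand) encodes the ETS repressor Yan and has 2 start sites. It had 4 peak regions within 1000 bp, as *pnt* did, and the highest Su(H) score of these genes in each replicate. The region just upstream of the inner start (chr2L:2161538-2163227) lay in an intron and was in all 4 lists. Ey-Dam scored 4.70 and 4.45 there (above 30.8% and 50.8%), and Su(H)-Dam 3.28 and 3.41 (above 53.2% and 73.6%). The neighbouring intronic region (chr2L:2163232-2165245) scored 3.80 and 3.87 in Su(H)-Dam, above 82.3% and 90.8%, with a mean of 3.84 ± 0.05 (SD, n = 2). Ey-Dam had 2 peaks in it in replicate 2, with scores of 4.14 and 4.33, and none in replicate 1. Both regions held reproducible Su(H) peaks and no reproducible Ey peak, although the former was called for Ey in each replicate.

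The inner start itself (chr2L:2160529-2161532) had low Su(H) scores of 2.22 and 1.89, above 1.72% and 0.684% of the lists. The most upstream start (chr2L:2177279-2179534) had a peak in Ey-Dam replicate 1 alone, with a score of 4.51. A region 2794 bp upstream of the gene (chr2L:2181548-2181899) stood out by its scores, and it falls outside the 1000 bp distance. Ey-Dam scored 5.22 and 5.34 there (mean 5.28 ± 0.08, SD, n = 2), above 54.1% and 87.0% of the lists. Su(H)-Dam scored 3.95 and 4.34, above 89.0% and 97.8%. Both factors had a reproducible peak on these 352 bp, which the 1000 bp distance leaves out of the counts for *aop*. The Ey peaks called in both replicates inside the gene were not kept by the IDR.

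**Figure D3:**
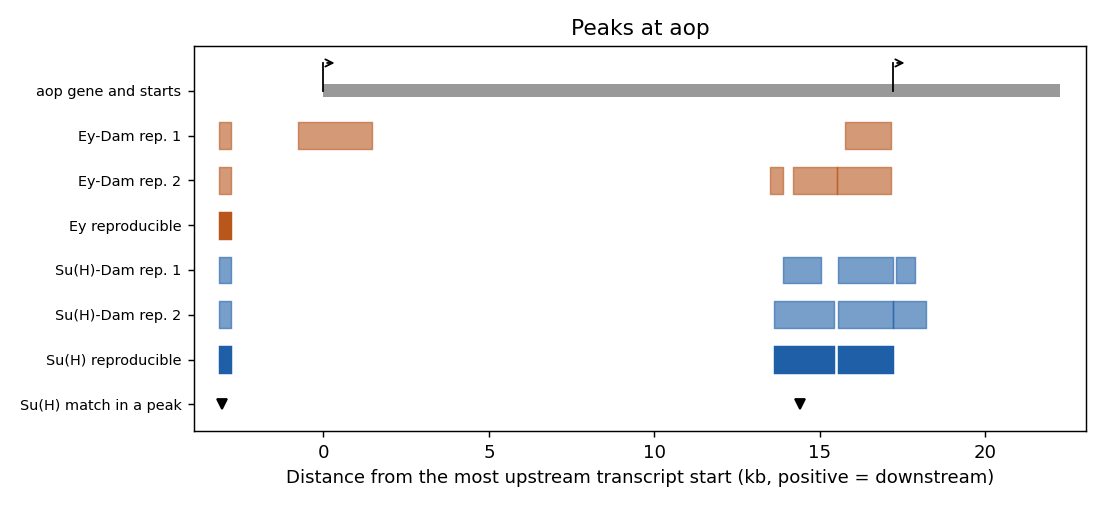
Map of *aop* in kb from its most upstream start site, positive downstream, drawn like the map of *pnt*. Reproducible Su(H) peaks lie in the intron next to the inner start and upstream of the gene, and the reproducible Ey peak lies upstream only, 2794 bp from the gene.

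*edl* (FBgn0023214, chr2R:18667527-18673536, minus strand) encodes a small protein that binds ETS factors and opposes Aop. Its Su(H) peak was intronic (chr2R:18669075-18671042) and had the same bounds in both replicates, with scores of 3.26 and 3.12, above 52.2% and 59.1% of the lists. It was reproducible and held 1 match. Ey-Dam replicate 2 had a peak 1012 bp upstream of the gene, with a score of 3.62, which falls just outside the distance, and the nearest reproducible Ey peak lay 325729 bp away. At the other side of the threshold, the Su(H) peak of *boss* at 572 bp was the outermost one that counted.

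*phyl* (FBgn0013725, chr2R:14427336-14432337, minus strand) is a target of the pathway in photoreceptors and encodes an adaptor that leads the repressor Ttk to degradation. A broad region over its start (chr2R:14429703-14433644) was in all 4 replicate lists and also overlapped lncRNA:CR45277. Su(H)-Dam scored 3.57 and 3.52 there, above 69.7% and 78.7% of the lists, as 1 peak of up to 3942 bp. Ey-Dam scored 4.79 in replicate 1, above 34.5% of that list. In replicate 2 it scored 3.64 and 3.45 in 2 separate peaks, above 21.1% and 12.9%. The Su(H) peak was reproducible and the Ey peaks were not. A region 1722 bp upstream of the gene (chr2R:14434059-14435422) had reproducible peaks of both factors, as at *aop*. Ey-Dam scored 5.63 and 3.92 there, above 71.2% and 30.1% of the lists, and Su(H)-Dam 3.67 and 3.03, above 75.7% and 54.1%. A peak near the 3′ end was found in Su(H)-Dam replicate 2 alone, with a score of 2.22.

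The scores of these peaks differed between replicates within the range of all peaks. Across 1185 pairs of overlapping Ey peaks the score of replicate 1 was higher by a median of 0.68 (SD of the difference 0.76), and across 1246 Su(H) pairs by 0.20 (SD 0.39). The 5th to 95th percentiles of the difference were -0.50 to 1.90 (Ey) and -0.41 to 0.84 (Su(H)). Every region of the 10 genes with a score in both replicates fell inside them. The Ey difference was 1.71 at the upstream *phyl* region, and the Su(H) difference was -0.39 at the upstream *aop* region, which was nearest to an edge. The median score of their peaks was 4.70 and 4.01 in Ey-Dam, where the list medians were 5.14 and 4.42. In Su(H)-Dam it was 3.28 and 2.98, where the list medians were 3.22 and 2.96. Above the list median were 1 of 5 and 2 of 9 Ey peaks, and 7 of 11 and 5 of 10 Su(H) peaks.

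The distances to reproducible peaks put the genes in 4 sets. For *pnt* both factors overlapped the gene. *aop* and *phyl* had Su(H) over the gene and Ey at 2795 and 1723 bp. *dos*, *sty*, *Cbl*, *boss* and *edl* had Su(H) within 1000 bp and the nearest Ey peak 13493 to 325729 bp away, while *sev* and *drk* had neither nearby. The median distance to a reproducible Ey peak was 21206.5 bp over the 10 genes and 60207 bp over all genes, and to a reproducible Su(H) peak 0 bp and 60213.5 bp. With a distance of 5000 bp, reproducible Ey peaks were at 3 genes and Su(H) peaks still at 8, beside 1806 and 1816 of all 18164 genes.

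**Figure D4:**
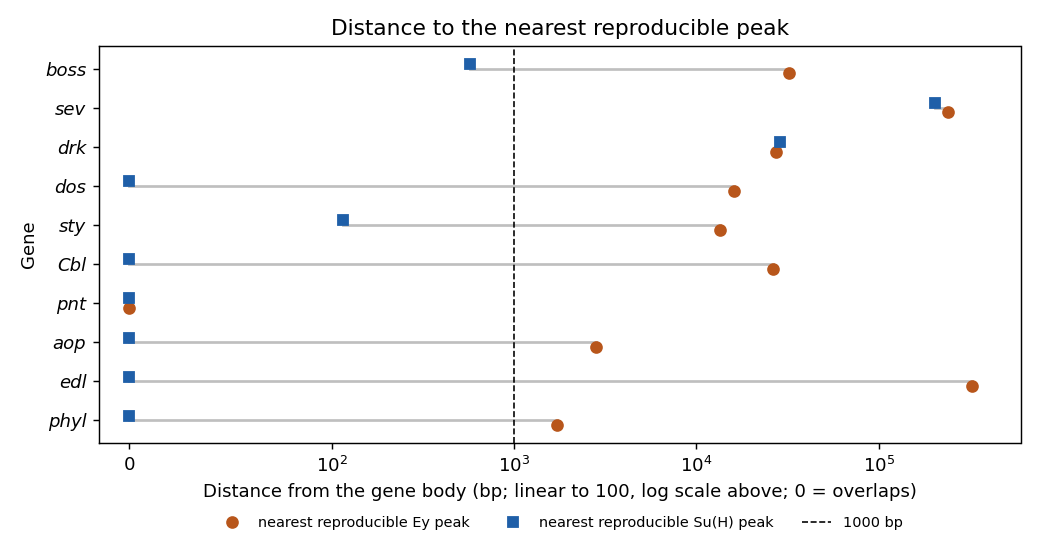
Distance in bp from each gene to the nearest reproducible Ey peak (circles) and Su(H) peak (squares); the axis is linear to 100 and a log scale above, 0 means that the peak overlaps the gene, and the dashed line marks 1000 bp. The Ey peaks of *aop* and *phyl* lie just past the line, at 2795 and 1723 bp.

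Joined by any overlap, the peaks of all lists made 16 regions within 1000 bp of the genes, and 7 of them carried replicate peaks of both factors. Of the rest 6 carried Su(H) alone, 1 (over the upstream *aop* start) Ey alone and 2 (at *boss* and *sty*) a reproducible Su(H) peak only. In the replicate lists, 4 of 11 Su(H) peaks and 4 of 5 Ey peaks overlapped a peak of the other factor in replicate 1, and 5 of 10 and 7 of 9 did in replicate 2. Over all peaks, the overlapping share was 69.5% (Su(H)) and 67.8% (Ey) in replicate 1, and 70.5% and 67.9% in replicate 2. Of the reproducible peaks, 1 of 10 Su(H) peaks and 1 of 1 Ey peak at these genes overlapped the other factor, where 62.9% of all reproducible Su(H) peaks and 61.0% of all reproducible Ey peaks did. The factors may share their Dam libraries, and the part of the controls in this overlap was not tested. By position, 7 regions lay wholly in introns, 4 covered a start site and 2 lay outside the gene.

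The Su(H) consensus was present in 6 of the 10 reproducible Su(H) peaks at these genes, at *dos*, *pnt* (both peaks), *aop*, *edl* and *phyl*. It was in 313 of all 972 reproducible Su(H) peaks (32.2%) and in 14.9% of genome windows of 1551 bp, the median length of these peaks. Within the central 300 bp it was in 2 of the 10, in 8.33% of all reproducible Su(H) peaks and in 3.04% of genome windows of that length. Over the 16 regions there were 10 matches in 7 regions of 6 genes. The matches to the consensus of Ey, which has 16 letters, were 0 in these regions, where 10.1% of reproducible Ey peaks and 7.2% of reproducible Su(H) peaks held one. No mismatch was allowed here either, so that no match was found says only that these letters are not in the peaks.

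Among 58 other genes of Ras/MAPK signalling, most genes with a peak had peaks of both factors. A reproducible Ey peak lay within 1000 bp of 11 (19.0%) and a Su(H) peak of 12 (20.7%), and 10 had both: *csw*, *Raf*, *RasGAP1*, *Egfr*, *spi*, *pyr*, *S*, *ttk*, *pros* and *Ets65A*. Of all genes, 1006 had an Ey peak (5.54%), 992 a Su(H) peak (5.46%) and 604 both (3.33%). Only *vn* had Ey without Su(H), only *Nf1* and *gro* had Su(H) without Ey, and 45 had neither. The list was written with results of these data known and covers long genes as well, so its counts are a description too. In the replicate lists 14 and 13 of the 58 had an Ey peak, beside 8.03% and 7.94% of all genes. A Su(H) peak was at 14 and 16, beside 7.76% and 8.23% of all genes.

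By role and by reproducible peaks, 2 of 13 core cascade and adaptor genes had peaks of each factor, *csw* and *Raf*, the kinase below Ras. Over all genes the shares were 5.54% (Ey) and 5.46% (Su(H)). Of the 10 negative regulators, 1 had an Ey peak and 3 a Su(H) peak. *RasGAP1*, which turns Ras off, had both, with best scores in the replicate lists of 5.35 and 5.56 in Ey-Dam and 4.14 and 4.08 in Su(H)-Dam. *Egfr*, the EGF receptor of the fly, was the only 1 of 7 genes for receptors and their partner with reproducible peaks, with 5.24 and 5.38 in Ey-Dam and 4.47 and 4.38 in Su(H)-Dam. Of 16 genes for ligands and their processing, 4 had an Ey peak and 3 a Su(H) peak. *pyr*, an FGF ligand, scored 6.07 and 5.24 in Ey-Dam and 3.66 and 3.29 in Su(H)-Dam. *S*, which carries the Spitz ligand through the cell, scored 6.16 and 4.78, and 3.92 and 3.80. Of 12 nuclear partners and eye targets 3 had peaks of each factor. *Ets65A*, another ETS gene, had best scores of 6.79 and 6.42 in Ey-Dam and 4.38 and 4.80 in Su(H)-Dam, above 97.5% to 99.5% of the lists. *pros*, a target in photoreceptors and a factor of neural differentiation, scored 6.14 and 5.57, and 3.57 and 3.54.

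**Figure D5:**
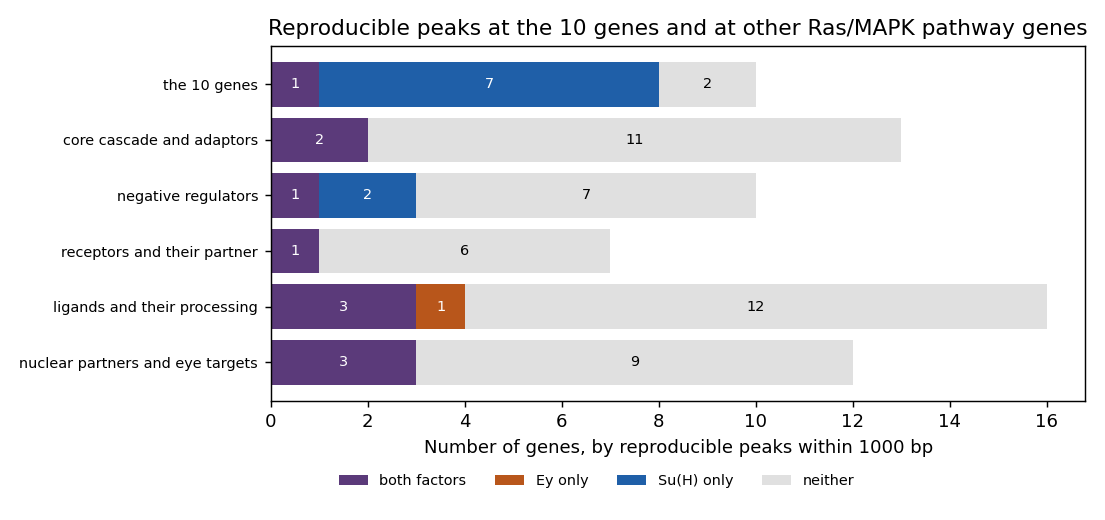
Number of genes (horizontal axis) with reproducible peaks of both factors, Ey only, Su(H) only or neither within 1000 bp, for the 10 genes and for the 58 other pathway genes by role. Su(H) only was found at 7 of the 10 genes and at 2 of the 58 others. Both sets were chosen with results of these data known, so their difference is a description of the choice.

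Of *sty*, *aop* and *Cbl*, only *aop* had a peak within 1000 bp in all 4 replicate lists. Its best peaks stood above 30.8% and 50.8% of the Ey-Dam lists and above 82.3% and 90.8% of the Su(H)-Dam lists. These Ey-Dam values come from the region just upstream of the inner start and the Su(H)-Dam values from the neighbouring intronic region. No single *aop* peak thus has this pattern, and the region upstream of the gene was not counted in it. Among 808 genes with peaks in all 4 lists, the 2 nearest to this pattern were *Hey* and lncRNA:CR44189, by the distance between their best percentiles over the 4 lists (10.8 and 12.3 percentile points). *Hey* stood above 29.2% and 40.9% of the Ey-Dam lists and 85.8% and 92.1% of the Su(H)-Dam lists.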

How the data were processed

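Libraries of 3 groups with 2 replicates each were analysed as lists of peaks. Per the methods of the study, the authors mapped the reads with Bowtie2 to dm6, computed log2 ratios over Dam with damidseq_pipeline and called peaks with find_peaks. The deposited replicate lists give each peak's score and FDR, and the deposited reproducible lists give the IDR score. Per the file contents, 1 score per peak is the only value used besides its FDR, and read depth was not analysed here. Deposited lists of overlaps were not used.

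Genes on 6 chromosome arms were those of Ensembl release 115, transposon insertions left out (18164 genes, 13945 protein coding), and sequences from RefSeq Release 6, where all peaks start and end at GATC. Starts in the reproducible lists are 1 bp higher than in the replicate lists, hence distances that differ by 1 bp. Peaks overlapped when they shared 1 bp. The members and gene lists were chosen with earlier results of these data known. No test was run, since the genes were chosen with the peaks known and 2 against 2 libraries cannot give an exact p under 0.333. Named are the 10 genes, up to 4 other pathway genes with the highest mean score of each factor, genes that a member peak overlaps, and the 2 genes most like each of *sty*, *aop* and *Cbl* that has peaks in all 4 lists. All genes of the pathway list with a reproducible peak are also named where counted, a choice made after their peaks were seen. *Raf* and *RasGAP1* are listed elsewhere as *phl* and *Gap1*.

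Alternatives were distances of 0 and 5000 bp, transcript starts in place of gene bodies, single replicates, stricter overlaps, higher-scored peaks, protein-coding genes and the central 300 bp. The code for distance and overlap between peak and gene and the Su(H) motif search were tested on simulated data. The Ey motif search and the overlap between peaks were not. Python 3.11.15, numpy 2.4.6, pandas 2.3.3 and matplotlib 3.10.9 were used.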

Additional observations from a re-analysis of the deposited data

How the results depend on the processing

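Of 54 values under other settings, 34 were within 1.5 times the reported one and 20 were not. Within 5000 bp of the gene, 3 of the 10 genes had a reproducible Ey peak (9.94% of all genes) and 3 had both factors, in place of 1. Within 1000 bp of a transcript start, 0 had a reproducible Ey peak, 4 a reproducible Su(H) peak, 0 both, and 1 an Ey peak in both replicates, and of the other pathway genes 6 had an Ey peak and 5 a Su(H) peak. Asking that reproducible peaks be called at an FDR of 0.01 in both replicates left 5 of 8 genes with Su(H), without *boss*, *dos* and *sty*. Among the higher-scored peaks of each list, 1 gene had Ey in both replicates. With the list of a single replicate, the count was 3 for Ey and 3 for both factors with either replicate, and 4 to 5 Su(H) peaks overlapped Ey and 4 to 7 Ey peaks overlapped Su(H), in place of 1 and 1. In the central 300 bp, 2 reproducible Su(H) peaks and 0 reproducible Ey peaks held a Su(H) match, in place of 6 and 1. The causes were not tested, apart from the settings' own construction. No share over all genes was taken for transcript starts, the stricter FDR or the higher-scored peaks. None was taken for both factors at 5000 bp or in a single replicate either. Those counts therefore cannot be set beside a rate over all genes. No paired analysis was possible because the counts come from no test, so the replicate number as a block was not run. With 2 replicates a factor and no read counts, a missing peak does not show that a factor is absent.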
